A study of Mus musculus with 11 samples.

Results

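The genes described are 49 cell cycle and DNA replication genes of the mouse, listed by symbol: 7 that control G1 and the entry into S phase, 13 of S phase itself, 15 regulators of the passage from G2 into mitosis, and 14 of the mitotic machinery. A gene was taken where a row of the array table is annotated to it alone, and where several such rows existed the row with the highest mean would be used. Of the 49 genes, 45 had such a row, each a single one, among 30142 genes with a row in all. Ccnd1, Mcm7, Foxm1 and Ccnb1 had none, so no signal is given for them. Mcm7 and Ccnb1 are counted among the promoters only. A further 3 (Mybl2, Cdc25c and Melk) had a row but stayed below the level required for testing, so 42 were tested and 45 are described.

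A dividing cell licenses its replication origins with the MCM helicase, builds nucleotides and copies its DNA in S phase, then activates cyclin-dependent kinase 1 and separates its chromosomes in mitosis. Genes of S phase are regulated mainly through E2F factors, and genes of G2 and mitosis mainly by the DREAM and MYB-MuvB complexes through CHR and CCAAT promoter elements. Adult hepatocytes are largely quiescent, re-enter the cycle after injury, and often copy their DNA without cytokinesis, which makes them polyploid.

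RNA came from hepatocytes of 12-week-old male mice, measured on 11 arrays in 4 groups. The double KO (n = 3) lacks Nemo in liver parenchymal cells and carries a Cxcr6 knockout; the Nemo KO (n = 3) has the same liver deletion with Cxcr6 present; the Cxcr6 KO (n = 3) lacks Cxcr6 alone; and the wildtype (n = 2) has neither change. Nemo, listed as Ikbkg, is the scaffold subunit of the IkB kinase complex in NF-kB signalling, and Cxcr6 is a chemokine receptor of lymphocytes. The labels mark the Nemo-deleted groups as Cre-positive and the Cxcr6 KO and wildtype as their Cre-negative counterparts in 2 mouse lines, so Cxcr6 status and mouse line cannot be told apart, and neither can Nemo deletion and the presence of Cre. The sources used here do not name the Cre driver. Values are log2 signals normalized by the authors, so a difference of 1 is a 2-fold change.

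The wildtype arrays stood apart from each other. Over all rows their Pearson correlation was 0.984, against 0.990 to 0.995 for pairs within the other groups, and 691 of 18337 tested genes were over 2-fold higher on wildtype array 2 than on wildtype array 1. Medians of the comparisons with wildtype are therefore given against both arrays and against each alone. The Ikbkg row lay between 8.76 and 9.49 on all 11 arrays, and the sources used here do not say which part of the gene was deleted, so this row checks no label. The Cxcr6 row lay between 4.94 and 5.56, close to the array medians of 5.19 to 5.38, also in wildtype. All 15 hepatocyte markers were tested and their mean lay between 17.6 and 18.0 on every array. In bulk RNA, fewer dividing cells and less RNA per dividing cell cannot be told apart.

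Promoters of the gene sets differed in sequence. Of the 49 genes, 39 had a promoter window of 300 bases in the RefSeq table (build GRCm38.p6), which runs 250 bases before to 50 after the start of the gene. These include Mcm7 and Ccnb1, which had no array row, but not Mcm4. The 12 S phase promoters are therefore not the same 12 genes as in the array results. Windows were searched on both strands for the CHR (TTTGAA or TTCGAA), the CCAAT box (CCAAT) and an E2F site (TTTGGCGC, TTTCCCGC, TTTCGCGC or TTTGCCGC), and overlapping matches were kept. A CHR and a CCAAT box stood together in 17 of 23 G2/M and mitotic promoters (73.9%), in 2 of 12 S phase promoters (16.7%) and in 8.61% of all 27025 genes with a window. A CHR was found in 78.3% of the G2/M and mitotic promoters, 16.7% of the S phase promoters and 21.7% of all genes. A CCAAT box was found in 82.6% of the G2/M and mitotic promoters, 66.7% of the S phase promoters and 41.1% of all genes. An E2F site was in 1 of 23 G2/M and mitotic promoters (4.35%), 5 of 12 S phase promoters (41.7%) and 2.6% of all genes. A match is a string of letters and not a measured binding site. Shown are the promoters of 2 mitotic genes and 2 S phase genes whose values are given below, from 220 bases before to 30 after the start, 5′ to 3′ on the strand of the gene, with CHR, CCAAT and E2F letters (either strand) in capitals. They lie at chr3:27153849-27154098 on the minus strand (Ect2, for which the table has overlapping windows and the more upstream start was taken), chr7:135716350-135716599 on the minus strand (Mki67), chr1:128359676-128359925 on the minus strand (Mcm6) and chr2:132253151-132253400 on the minus strand (Pcna).
Ect2: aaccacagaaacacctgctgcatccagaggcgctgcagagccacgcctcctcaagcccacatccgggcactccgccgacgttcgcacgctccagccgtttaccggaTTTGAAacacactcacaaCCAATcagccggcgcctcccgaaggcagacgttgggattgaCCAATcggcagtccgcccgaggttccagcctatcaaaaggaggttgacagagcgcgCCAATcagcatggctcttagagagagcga
Mki67: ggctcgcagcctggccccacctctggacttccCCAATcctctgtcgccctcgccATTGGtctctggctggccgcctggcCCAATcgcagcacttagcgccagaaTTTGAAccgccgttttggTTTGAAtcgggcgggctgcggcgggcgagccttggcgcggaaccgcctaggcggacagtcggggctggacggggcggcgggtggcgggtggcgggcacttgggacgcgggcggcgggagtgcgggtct
Mcm6: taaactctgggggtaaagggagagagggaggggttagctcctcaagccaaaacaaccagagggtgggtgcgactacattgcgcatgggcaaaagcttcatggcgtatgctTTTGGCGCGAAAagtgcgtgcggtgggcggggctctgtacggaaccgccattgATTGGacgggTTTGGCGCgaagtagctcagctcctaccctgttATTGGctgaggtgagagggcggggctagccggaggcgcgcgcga
Pcna: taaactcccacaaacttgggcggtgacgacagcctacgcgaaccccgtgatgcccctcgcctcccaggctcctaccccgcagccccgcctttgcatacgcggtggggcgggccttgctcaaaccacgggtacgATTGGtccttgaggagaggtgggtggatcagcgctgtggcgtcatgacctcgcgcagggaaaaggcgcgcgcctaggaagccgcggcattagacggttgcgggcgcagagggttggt
The Ect2 stretch holds 1 CHR and 3 CCAAT boxes, and the Mki67 stretch 2 CHRs and 3 CCAAT boxes. Another CHR of the Ect2 window, at position 40 after the start, lies beyond the end of the stretch shown. The Mcm6 stretch holds overlapping E2F sites and CCAAT boxes but no CHR. Pcna holds a single CCAAT box in reverse and no match to the other letters, which says only that these strings are not in this window.

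**Figure D1:**
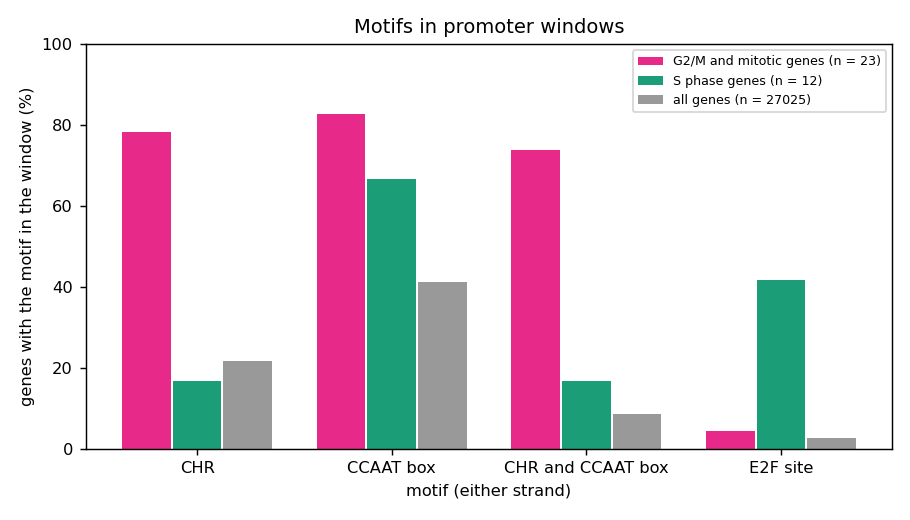
Share of genes (%, bars) with each motif on either strand of a promoter window of 300 bases, for 23 G2/M and mitotic genes, 12 S phase genes and all 27025 genes with a window. A CHR with a CCAAT box stood in 73.9% of G2/M and mitotic windows, and an E2F site in 41.7% of S phase windows. The S phase genes here include Mcm7 and not Mcm4.

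Across genotypes, the group mean of the 27 G2/M and mitotic genes was lowest in the Cxcr6 KO, close to the array medians of 5.19 to 5.38. Wildtype array 1 alone, at 5.441, lay below every Cxcr6 KO array (5.455 to 5.616). Both the double KO and the wildtype were spread over a wide range. The mean signal of the 27 G2/M and mitotic genes was 7.15 ± 1.00 in the double KO, 6.36 ± 0.195 in the Nemo KO, 5.55 ± 0.086 in the Cxcr6 KO and 6.32 ± 1.25 in wildtype (SD over arrays). The mean of the 12 S phase genes was 7.16 ± 0.43 in the double KO, 6.75 ± 0.081 in the Nemo KO, 6.72 ± 0.058 in the Cxcr6 KO and 7.04 ± 0.81 in wildtype. The Nemo KO mean thus lay above the Cxcr6 KO mean for the G2/M and mitotic genes and beside it for the S phase genes. The S phase mean joins genes lower in the Nemo KO, such as Pcna (8.95 against 9.73) and Tk1 (7.03 against 8.14), with genes higher in it. Among the higher were Mcm5 (5.76 against 5.29) and Mcm6 (6.24 against 5.83). These 2 groups differ in Nemo and in Cxcr6 or mouse line, and were not compared in the fit. The range between arrays of a group had a median over the 45 genes of 1.44 in the double KO, 0.31 in the Nemo KO, 0.24 in the Cxcr6 KO and 1.40 in wildtype. Over all tested genes the median was 0.28 in the double KO, 0.30 in the Nemo KO, 0.24 in the Cxcr6 KO and 0.23 in wildtype. The range passed 1 for 30 of the 45 genes in the double KO and 27 in wildtype, and for none in the Nemo KO or the Cxcr6 KO. Over all tested genes it passed 1 for 5.2% in the double KO, 5.1% in the Nemo KO, 1.2% in the Cxcr6 KO and 6.5% in wildtype.

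**Figure D2:**
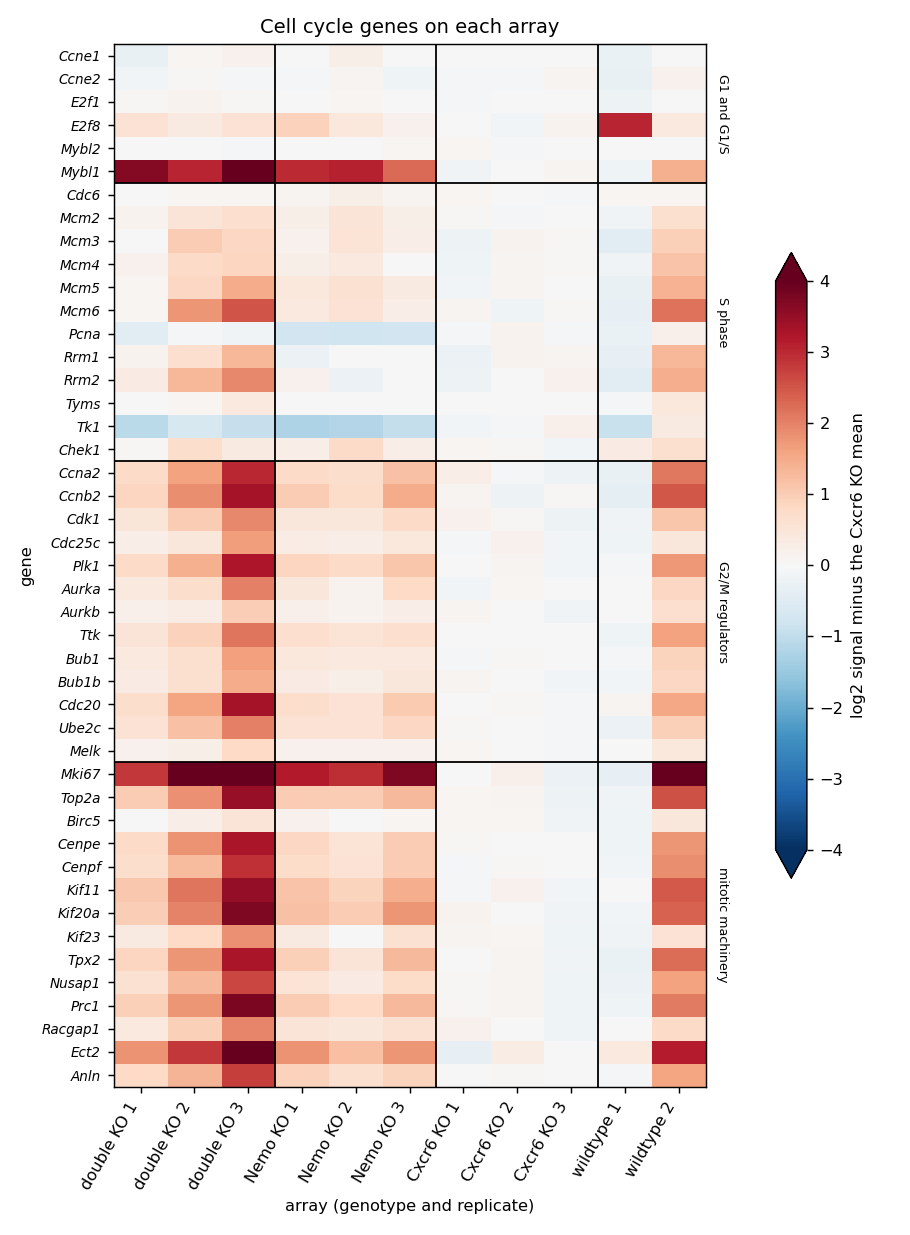
Heat map of the log2 signal of 45 genes (rows, by role) on 11 arrays (columns, by genotype), each minus the mean of the 3 Cxcr6 KO arrays, with colours saturating at 4. Double KO array 3 is highest for all 27 G2/M and mitotic genes, and wildtype array 2 is raised while wildtype array 1 is not.

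Mki67, which encodes the proliferation marker Ki-67 that coats mitotic chromosomes, showed the pattern at its widest. Its log2 signal was 8.53, 10.10 and 12.38 on the double KO arrays, 8.86, 8.64 and 9.44 on the Nemo KO arrays, 5.71, 5.89 and 5.46 on the Cxcr6 KO arrays, and 5.35 and 11.18 on the wildtype arrays. The Nemo KO arrays lay close together, double KO array 1 lay just below them, and the wildtype arrays fell on either side of every Nemo KO array. The signal on wildtype array 1 was close to the median of that array, 5.26, so no fold against it is given, and double KO array 3 was 14.4-fold above double KO array 1. Top2a, the topoisomerase that untangles sister chromatids, had 6.79, 7.63 and 9.27 in the double KO, 6.79, 6.79 and 7.09 in the Nemo KO, 5.88, 5.90 and 5.58 in the Cxcr6 KO, and 5.65 and 8.35 in wildtype. The order of the arrays was the same as for Mki67 at the top, with double KO array 3 first and wildtype array 2 next.

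Within wildtype, array 2 was above array 1 for 43 of the 45 genes and over 2-fold above it for 26. Among all 18337 tested genes the same held for 7432 and 691. The median difference, array 2 minus array 1, was 1.28 over the 45 genes and -0.03 over all tested genes. Wildtype array 1 lay within or below the Cxcr6 KO arrays for 41 of 45 genes, and wildtype array 2 lay above all Nemo KO arrays for 37. Within the double KO, array 1 was the lowest of the 3 for 42 genes and lay within or below the Nemo KO arrays for 41, whereas array 2 lay above all Nemo KO arrays for 37. No share of all tested genes is given for these positions. Measured from the Cxcr6 KO mean, the median over the 45 genes was -0.151 and 1.108 on the wildtype arrays, beside 0.005 and -0.03 over all tested genes. On the double KO arrays it was 0.386, 0.915 and 1.915, beside -0.049, -0.052 and -0.076.

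The Nemo KO was set against wildtype to ask what loss of Nemo does to these genes with Cxcr6 present, and no gene was called. Of 42 genes tested, 0 passed the 5% threshold (limma, Benjamini-Hochberg over 18337 genes), where 0.158% of all tested genes were called (0.0491% higher and 0.109% lower); 3 had an unadjusted p under 0.05, which is 7.14% against 24.6% of all tested genes. The median log2 difference, Nemo KO minus wildtype, was -0.02 with 20 genes higher and 25 lower, beside -0.04 over all tested genes. Against wildtype array 1 alone the median was 0.53 with 42 genes higher and 3 lower. Against wildtype array 2 alone it was -0.76 with 6 higher and 39 lower. All 27 G2/M and mitotic genes were higher in the Nemo KO mean than on wildtype array 1, and all 27 were lower than on wildtype array 2.

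Single genes followed this split, with a few exceptions in S phase and G1. The difference for Mki67 was 0.72 ± 1.51 (SE; adjusted p = 0.815), for Top2a -0.11 ± 0.80 (adjusted p = 0.953), for Ect2 -0.17 ± 0.86 (adjusted p = 0.929) and for Cdk1, the kinase that drives entry into mitosis, 0.07 ± 0.43 (adjusted p = 0.941). Mcm6, a subunit of the replicative helicase, and Rrm2, the small subunit of ribonucleotide reductase, both differed by -0.51 (± 0.76 with adjusted p = 0.729, and ± 0.55 with adjusted p = 0.615). Mybl1, a MYB family factor best known from male germ cells, differed by 2.15 ± 0.81 (adjusted p = 0.143), with all Nemo KO arrays above both wildtype arrays. All Nemo KO arrays were above both wildtype arrays for 2 of the 45 genes, Mybl1 and the licensing factor Cdc6, and below both for 2, where 11.3% and 24.7% of all tested genes did the same.

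Pcna and Tk1 were the genes lower on all Nemo KO arrays. Pcna, the sliding clamp of DNA polymerase, had 9.29, 9.64 and 9.59 in the double KO, 8.96, 8.92 and 8.97 in the Nemo KO, 9.65, 9.88 and 9.65 in the Cxcr6 KO, and 9.47 and 9.93 in wildtype. The Nemo KO arrays were the lowest of all 11 and overlapped no other group. The difference, Nemo KO minus wildtype, was -0.75 ± 0.16 (limma, adjusted p = 0.0654). It passed the threshold when each array was centred on its median (-0.83, limma, adjusted p = 0.0389). Centring also moved the median of all tested genes to -0.12, and 89 genes were then called higher and 1230 lower of 18280 tested. Without wildtype array 1 the Pcna difference was -0.98. Tk1, thymidine kinase of the nucleotide salvage pathway, had 7.07, 7.49 and 7.23 in the double KO, 6.92, 6.98 and 7.18 in the Nemo KO, 8.02, 8.06 and 8.34 in the Cxcr6 KO, and 7.24 and 8.49 in wildtype. Both Nemo-deleted groups were below the Cxcr6 KO without overlap, and wildtype array 1 sat at the level of the Nemo-deleted arrays. Its difference, Nemo KO minus wildtype, was -0.83 ± 0.30 (adjusted p = 0.137), and -1.46 (adjusted p = 0.0186) without wildtype array 1.

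E2f8, an atypical E2F that represses E2F targets and takes part in hepatocyte polyploidization, ran against the other genes within wildtype. Its signal was 7.51, 7.28 and 7.51 in the double KO, 7.84, 7.35 and 7.09 in the Nemo KO, 6.90, 6.80 and 7.07 in the Cxcr6 KO, and 9.97 and 7.31 in wildtype. Wildtype array 1, low for nearly all other cycle genes, was the highest array for E2f8. The differences were -1.22 ± 0.60 for Nemo KO minus wildtype (adjusted p = 0.246) and -1.72 ± 0.60 for Cxcr6 KO minus wildtype (adjusted p = 0.313). Without wildtype array 2 they were -2.55 (adjusted p = 0.00467) and -3.05 (adjusted p = 0.00402), so these calls rest on a single wildtype array. Of the other G1 genes, Ccne1, Ccne2 and E2f1 had group means between 5.67 and 6.45.

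**Figure D3:**
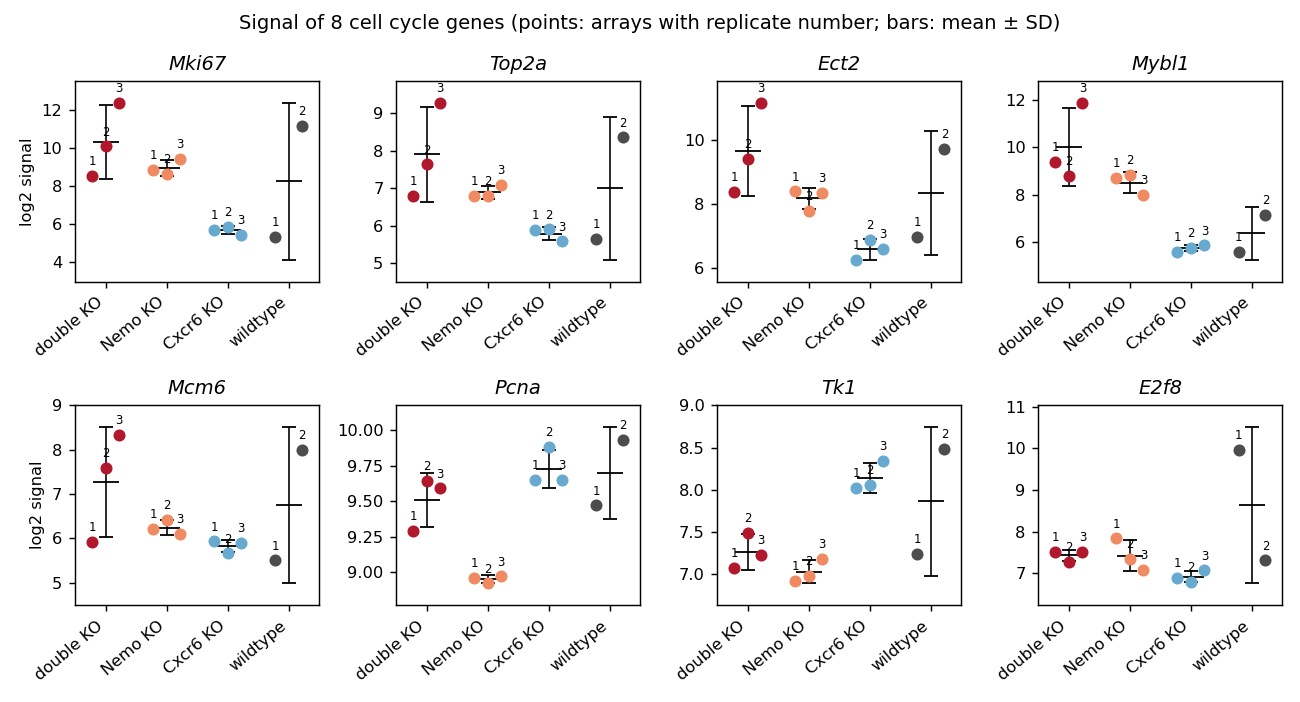
Log2 signal (vertical axes) of 8 genes by genotype, with a point per array, its replicate number, and bars for the mean ± SD of 3 arrays (2 in wildtype). For Mki67, Top2a, Ect2 and Mcm6 wildtype array 2 lies far above wildtype array 1, Pcna is lowest on the Nemo KO arrays, and E2f8 is highest on wildtype array 1.

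The double KO and the Cxcr6 KO compare Nemo deletion with its absence where Cxcr6 is lacking. Nearly all G2/M and mitotic genes were higher on every double KO array, but only 2 genes passed the threshold: Ect2, of the mitotic machinery, and Mybl1, of the G1 group. All 3 double KO arrays lay above all 3 Cxcr6 KO arrays for 34 of the 45 genes, where 13.3% of all tested genes did so, and below them for Pcna and Tk1, where 24.4% did. By role this was 26 of 27 G2/M and mitotic genes, 5 of 12 S phase genes and 3 of 6 G1 genes. The median difference, double KO minus Cxcr6 KO, was 1.03 with 40 genes higher and 5 lower, beside -0.06 over all tested genes; without double KO array 3 it was 0.58. By role it was 1.96 for the mitotic machinery, 1.14 for the G2/M regulators, 0.52 for S phase and 0.03 for G1. Of 42 genes tested, 2 rose and 0 fell at the 5% threshold (limma, Benjamini-Hochberg), where 7.41% of all tested genes were called, 3.44% higher and 3.96% lower. The 2 calls among 42 genes are thus a share near that of all tested genes. An unadjusted p under 0.05 was reached by 26 genes, or 61.9%, against 29.1% of all tested genes.

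The genes called were Mybl1 and Ect2. Mybl1 had 9.40, 8.78 and 11.88 in the double KO, 8.72, 8.82 and 7.99 in the Nemo KO, 5.59, 5.74 and 5.85 in the Cxcr6 KO, and 5.57 and 7.15 in wildtype. Every Nemo-deleted array was above every array with Nemo intact. The double KO exceeded the Cxcr6 KO by 4.29 ± 0.72 (adjusted p = 0.0160). Ect2, a guanine nucleotide exchange factor needed for cytokinesis, had 8.39, 9.42 and 11.16 in the double KO, 8.40, 7.80 and 8.36 in the Nemo KO, 6.27, 6.90 and 6.60 in the Cxcr6 KO, and 6.99 and 9.73 in wildtype. The double KO and Cxcr6 KO arrays did not overlap, and wildtype array 2 exceeded 2 of the 3 double KO arrays. Ect2 rose by 3.07 ± 0.77, or 8.40-fold (adjusted p = 0.0470).

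These calls shift with single arrays. No gene of the 42 was called without Cxcr6 KO array 2 or array 3, where 1.1% and 0.629% of all tested genes were. Ect2 was also not called with no filter on low values, or without Cxcr6 KO array 1, double KO array 2 or 3, or Nemo KO array 1 or 3. Without either wildtype array, which takes the spread between the wildtype arrays out of the fit, 13 genes were called, 12 higher and Tk1 lower, the same 13 genes in both cases, and 12.7% of all tested genes were called in each. With array weights, which give less weight to arrays that deviate, 28 of the 42 were called, 27 higher and Tk1 lower, beside 25.6% of all tested genes.

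Mki67 was higher by 4.65 ± 1.35 in the double KO than in the Cxcr6 KO (adjusted p = 0.0648), without overlap between the groups. Among the mitotic motors and spindle proteins, Kif11, which pushes the spindle poles apart, differed by 2.24 ± 0.68 (adjusted p = 0.0723). Top2a differed by 2.11 ± 0.71 (adjusted p = 0.0939), and the smallest difference of the mitotic machinery was 0.27 for Birc5, the survivin subunit of the chromosomal passenger complex. Among the regulators, Ube2c, the ubiquitin-conjugating enzyme of the anaphase-promoting complex, differed by 1.26 ± 0.36 (adjusted p = 0.0648) and Cdk1 by 1.14 ± 0.38 (adjusted p = 0.0910). In S phase, Mcm6 differed by 1.45 ± 0.68 (adjusted p = 0.194), Rrm2 by 1.20 ± 0.49 (adjusted p = 0.146) and Pcna by -0.22 ± 0.14 (adjusted p = 0.336). Tk1 was lower by a difference of -0.88 ± 0.27 (adjusted p = 0.0761). None of these passed the threshold. Without double KO array 3 the difference was 0.92 for Mcm6 and 0.76 for Cdk1, and without double KO array 1 it was -0.11 for Pcna.

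The double KO and the Nemo KO both lack Nemo and differ in Cxcr6 and in mouse line. Most genes had a higher mean in the double KO, but none passed the threshold, and the arrays of the groups overlapped for all but 4 of the 45 genes. The median difference was 0.58 with 41 of 45 genes higher and 4 lower, beside 0.04 over all tested genes, of which 10429 of 18337 were higher. By role the medians were 1.00 for the mitotic machinery, 0.56 for the G2/M regulators, 0.31 for S phase and 0.01 for G1. Of 42 genes tested 0 were called (limma, Benjamini-Hochberg), where 0.594% of all tested genes were (0.365% higher and 0.229% lower); 2 had an unadjusted p under 0.05, or 4.76% against 16.8%. The median rested largely on double KO array 3: without it the value was 0.20, and without double KO array 1 it was 0.91. All 3 double KO arrays were above all Nemo KO arrays for 3 of 45 genes, where 12.9% of all tested genes were, and these were Pcna, Rrm1 and Rrm2. All 3 were below for Cdc6 alone, where 9.94% of all tested genes were.

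Rrm2 had 7.02, 8.01 and 8.61 in the double KO, 6.86, 6.45 and 6.72 in the Nemo KO, 6.48, 6.70 and 6.87 in the Cxcr6 KO, and 6.23 and 8.14 in wildtype. The Nemo KO and Cxcr6 KO arrays overlapped, and the double KO lay above both groups. The double KO differed from the Nemo KO by 1.20 ± 0.49 for Rrm2 (adjusted p = 0.268), by 0.78 ± 0.40 for Rrm1, the large subunit of the same enzyme (adjusted p = 0.359), and by 0.56 ± 0.14 for Pcna (adjusted p = 0.121). Pcna passed the threshold with array weights (0.57, adjusted p = 0.0274). Mybl1 differed by 1.51 ± 0.72 (adjusted p = 0.328), Ect2 by 1.47 ± 0.77 (adjusted p = 0.364) and Mki67 by 1.36 ± 1.35 (adjusted p = 0.624). Mcm6, Top2a and Cdk1 differed by 1.03 ± 0.68, 1.00 ± 0.71 and 0.59 ± 0.38 (adjusted p = 0.459, 0.491 and 0.452). Without double KO array 3 the differences were 0.58 for Mybl1, 0.72 for Ect2, 0.33 for Mki67, 0.50 for Mcm6, 0.32 for Top2a, 0.20 for Cdk1 and 0.47 for Rrm1. Without double KO array 1 they were 2.26 for Mki67, 1.71 for Mcm6, 1.55 for Top2a and 0.91 for Cdk1.

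The Cxcr6 KO against wildtype, the same contrast with Nemo intact, gave no call either. Of 42 genes 0 passed (limma, Benjamini-Hochberg), where 0.256% of all tested genes did (0.175% higher and 0.0818% lower), and 2 had an unadjusted p under 0.05, or 4.76% against 11.1%. The median difference was -0.50 with 5 genes higher and 40 lower, beside 0.01 over all tested genes. It was 0.15 against wildtype array 1 alone, with 38 genes higher and 7 lower, and -1.11 against wildtype array 2 alone, with 1 higher and 44 lower. All Cxcr6 KO arrays were below both wildtype arrays for 4 of 45 genes and above both for 0, where 11.2% and 12.7% of all tested genes were. The smallest p after that of E2f8 belonged to Chek1, the checkpoint kinase of stalled replication forks, at -0.49 ± 0.21 (adjusted p = 0.435), Ect2 at -1.77 ± 0.86 (adjusted p = 0.502) and Mki67 at -2.58 ± 1.51 (adjusted p = 0.590). Mki67 was called without wildtype array 1 (-5.49, adjusted p = 0.0484). Top2a differed by -1.21 ± 0.80, Mcm6 by -0.92 ± 0.76, Mybl1 by -0.63 ± 0.81, Rrm2 by -0.50 ± 0.55, Cdk1 by -0.49 ± 0.43 and Pcna by 0.03 ± 0.16, with adjusted p between 0.650 and 0.974.

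**Figure D4:**
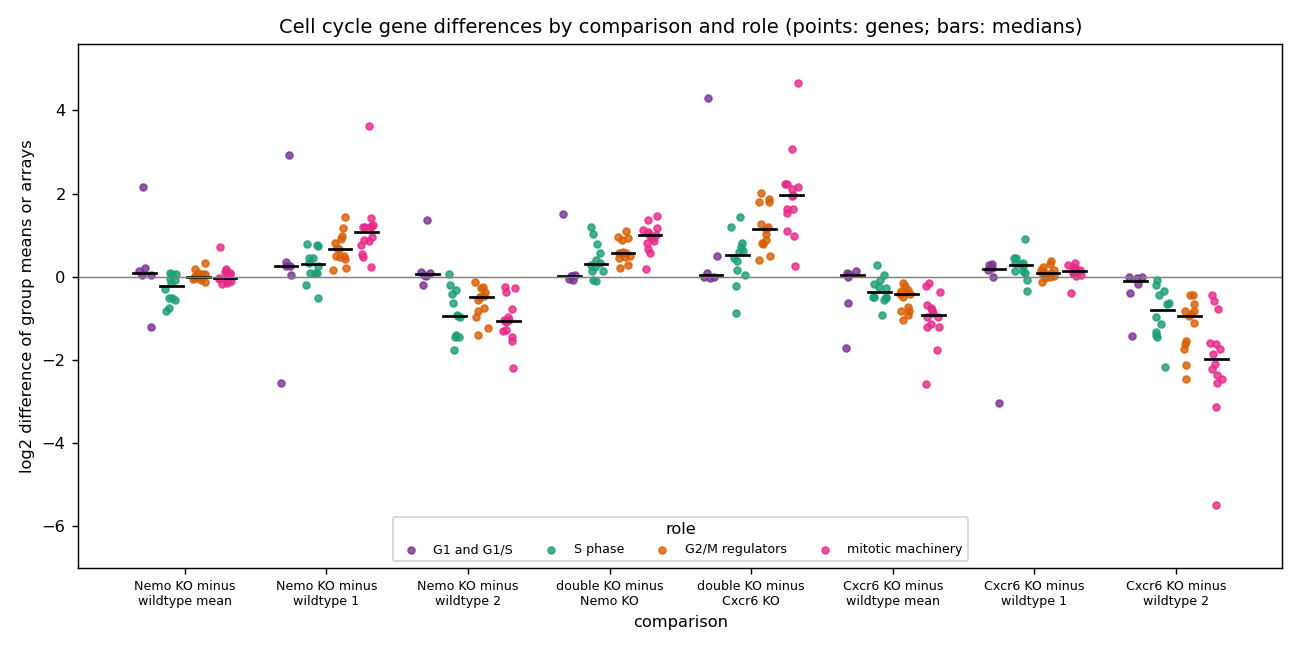
Log2 differences (vertical axis) of 45 genes by role, for 4 comparisons of group means and, where wildtype is used, against each wildtype array alone, with a point per gene and a bar at the median of each role. The sign of the comparisons with wildtype depends on the wildtype array, and the mitotic machinery lies highest in double KO minus Cxcr6 KO, with a median of 1.96.

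Whether the difference made by Nemo loss depends on Cxcr6 was tested with the interaction, the double KO minus Cxcr6 KO difference less the Nemo KO minus wildtype difference. No gene of the 42 was called (limma, Benjamini-Hochberg), and neither was any of all tested genes (0%); 3 had an unadjusted p under 0.05, or 7.14% against 11.8%. The smallest p belonged to Ect2 at 3.24 ± 1.16 (adjusted p = 0.347), Pcna at 0.53 ± 0.21 (adjusted p = 0.374), Rrm2 at 1.71 ± 0.74 (adjusted p = 0.415) and Kif11 at 2.30 ± 1.02 (adjusted p = 0.427). Mki67 had the widest estimate, 3.93 ± 2.02 (adjusted p = 0.467). The values for Top2a, Mybl1, Mcm6 and Cdk1 were 2.22 ± 1.07, 2.14 ± 1.08, 1.95 ± 1.02 and 1.07 ± 0.57, with adjusted p between 0.455 and 0.477. The estimates moved with the wildtype array. Without wildtype array 1 they were 4.61 for Ect2, 0.77 for Pcna, 2.66 for Rrm2, 3.55 for Kif11, 6.85 for Mki67, 3.57 for Top2a, 2.93 for Mybl1, 3.20 for Mcm6 and 1.69 for Cdk1. Without wildtype array 2 they were 1.87 for Ect2, 0.30 for Pcna, 0.75 for Rrm2, 1.05 for Kif11, 1.02 for Mki67, 0.87 for Top2a, 1.35 for Mybl1, 0.71 for Mcm6 and 0.45 for Cdk1. Mybl1 was lowest without double KO array 3, at 1.21. Without wildtype array 2, E2f8 was called at 3.06 (adjusted p = 0.0174).

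S phase and mitotic genes did not keep the same order over the arrays. Measured from the Cxcr6 KO mean, the median of the 27 G2/M and mitotic genes was 0.704, 1.315 and 2.758 on the double KO arrays, 0.712, 0.559 and 0.885 on the Nemo KO arrays, and -0.135 and 1.608 on the wildtype arrays. The median of the 12 S phase genes was 0.061, 0.682 and 0.755 on the double KO arrays, 0.163, 0.315 and 0.070 on the Nemo KO arrays, and -0.285 and 0.804 on the wildtype arrays. Double KO array 3 stood far above array 2 for mitosis and close to it for S phase, and wildtype array 2 was highest for S phase while lying well below double KO array 3 for mitosis. Double KO array 3 was the highest array for 27 of 27 G2/M and mitotic genes and for 5 of 12 S phase genes. No share of all tested genes is given for the highest array, so 5 of 12 says nothing particular to S phase. Wildtype array 2 was above double KO array 3 for 0 of the 27 and for 7 of the 12, where it was above for 10333 of all 18337 tested genes. The S phase count is thus near the share of all tested genes. The median difference, wildtype array 2 minus double KO array 3, was -1.08 for the 27 genes and 0.02 for the 12, beside 0.04 over all tested genes. These are counts over single arrays without a test.

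Single genes show the same. Mcm6 had 5.91, 7.58 and 8.33 in the double KO, 6.22, 6.42 and 6.09 in the Nemo KO, 5.93, 5.66 and 5.89 in the Cxcr6 KO, and 5.50 and 8.0 in wildtype. Double KO array 1 was at the Cxcr6 KO level, and wildtype array 2 lay between double KO arrays 2 and 3. Cdk1 had 6.01, 6.54 and 7.44 in the double KO, 5.98, 5.98 and 6.28 in the Nemo KO, 5.68, 5.56 and 5.33 in the Cxcr6 KO, and 5.39 and 6.63 in wildtype. Here all Nemo-deleted arrays exceeded all Cxcr6 KO arrays. Cdc20, the activator of the anaphase-promoting complex, had 5.96, 6.84 and 8.60 in the double KO, 5.97, 5.84 and 6.31 in the Nemo KO, 5.29, 5.31 and 5.17 in the Cxcr6 KO, and 5.38 and 6.80 in wildtype. Double KO array 3 stood above wildtype array 2 by the widest margin of the 27 genes.

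**Figure D5:**
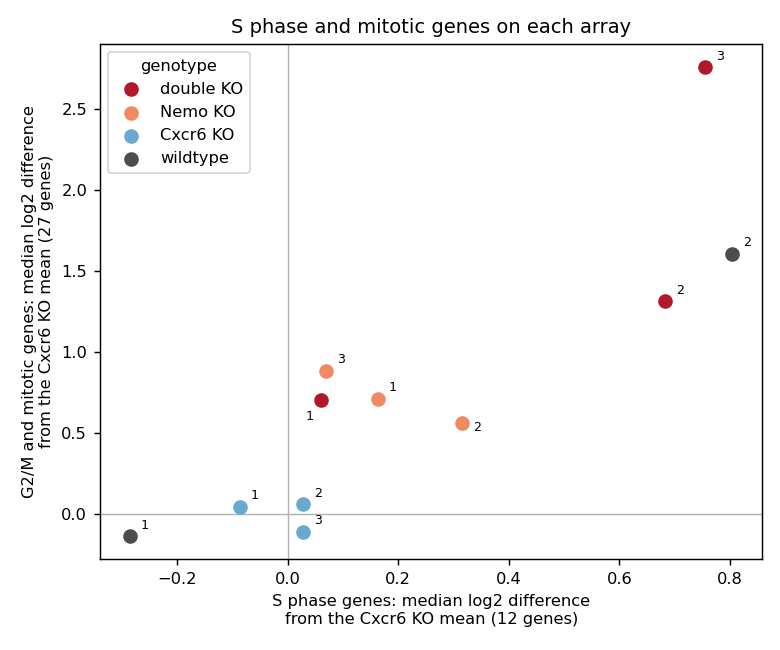
Median log2 difference from the Cxcr6 KO mean of 27 G2/M and mitotic genes (vertical axis) and of 12 S phase genes (horizontal axis), with a point per array labelled by replicate number. Double KO array 3 lies at 2.758 and 0.755, and wildtype array 2 at 1.608 and 0.804.

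Other genes of the pathway gave few calls. Of 54 tested other mitotic genes (57 with a row) none was called in any of the 5 comparisons (limma, Benjamini-Hochberg), where 7.41% of all tested genes were called in double KO minus Cxcr6 KO. Their median difference was 0.68 for double KO minus Cxcr6 KO and 0.39 for double KO minus Nemo KO, and their mean level ran from 6.08 to 7.18 in the double KO, 6.06 to 6.23 in the Nemo KO, 5.74 to 5.80 in the Cxcr6 KO and 5.67 to 6.65 in wildtype. Of 33 tested other replication genes, 1 fell in double KO minus Cxcr6 KO: Gins4, a subunit of the helicase, by 0.62 ± 0.11 (adjusted p = 0.0210). The median of that list was 0.05. Of 17 other cyclins, cyclin-dependent kinases and E2F factors, 1 rose: Ccnd2, a D-type cyclin, by 0.93 ± 0.19 (adjusted p = 0.0264). The shares called in these lists, 1 of 33 and 1 of 17, lie at or below that of all tested genes. The 3 lists had no call in the other 4 comparisons.

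Among inhibitors of the cycle, Cdkn1a, Rbl1 and Btg2 rose and Rbl2 fell. Of 16 tested inhibitors and pocket proteins, 3 rose and 1 fell in double KO minus Cxcr6 KO, where 3.44% and 3.96% of all tested genes did, and none was called in the other comparisons. Cdkn1a, the inhibitor p21 and a p53 target, had 11.58, 9.48 and 11.43 in the double KO, 9.48, 9.45 and 10.37 in the Nemo KO, 6.54, 6.01 and 7.11 in the Cxcr6 KO, and 8.91 and 11.46 in wildtype. The double KO and Cxcr6 KO did not overlap, and both wildtype arrays were above the Cxcr6 KO. Cdkn1a rose by 4.28 ± 0.72 (adjusted p = 0.0163). Rbl1, the pocket protein p107, rose by 1.60 ± 0.28 (adjusted p = 0.0177), and Btg2, an antiproliferative p53 target, by 1.28 ± 0.23 (adjusted p = 0.0204). Rbl2, the pocket protein p130 of quiescent cells, fell by 0.65 ± 0.11 (adjusted p = 0.0167).

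Markers of other liver cells moved with some of these groups. In double KO minus Cxcr6 KO, 16 of 18 tested endothelial markers, 9 of 12 stellate cell markers, 6 of 19 macrophage markers and 5 of 9 cholangiocyte markers rose (limma, Benjamini-Hochberg), and none of them fell, where 3.44% of all tested genes rose. The mean of the macrophage list was 7.56, 8.27 and 8.05 on the double KO arrays, 7.39, 7.06 and 8.16 on the Nemo KO arrays, 6.71, 6.88 and 6.69 on the Cxcr6 KO arrays, and 6.35 and 7.34 on the wildtype arrays. It was thus also higher on wildtype array 2 than on array 1. The mean of the endothelial list was 7.59, 8.34 and 8.0 in the double KO, 6.95, 7.02 and 7.33 in the Nemo KO, 6.17, 6.70 and 6.56 in the Cxcr6 KO, and 6.72 and 6.65 in wildtype, so it was no higher on wildtype array 2. The mean of the stellate cell list was 6.45, 7.05 and 7.21 in the double KO, 6.31, 6.42 and 6.35 in the Nemo KO, 5.74, 5.79 and 5.70 in the Cxcr6 KO, and 5.81 and 6.12 in wildtype. The mean of the cholangiocyte list was 6.13, 6.35 and 6.64 in the double KO, 5.84, 5.865 and 5.85 in the Nemo KO, 5.56, 5.62 and 5.53 in the Cxcr6 KO, and 5.575 and 5.88 in wildtype. Double KO array 2 was the highest of the double KO for the macrophage and endothelial lists, and double KO array 3 for the stellate cell and cholangiocyte lists, as for the mitotic genes. The stellate cell list was also higher on wildtype array 2 than on array 1, with a median difference of 0.17, 12 genes higher and 2 lower. The cholangiocyte mean was higher too, but its median difference was 0.0 with 5 genes higher and 5 lower. The widest difference of that list was 2.88, for Prom1. The T, NK and NKT cell list stayed between 4.86 and 5.04, the B cell list between 4.85 and 5.13 and the neutrophil list between 4.94 and 5.11, at or below the array medians. The part of these cells in the cycle gene values was not tested.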

How the data were processed

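Hepatocyte RNA was hybridised to 11 expression arrays, after labelling of 300 ng with a whole-transcript kit per the labels' protocols. The deposited values are log2 signals of transcript clusters. Expression Console and Transcriptome Analysis Console (Affymetrix) and RMA are named, without versions, in the submitters' processing notes. RMA corrects background, normalizes quantiles and summarises probes, so a general shift of expression would be removed. Arrays carry no read depth, and their number limits the precision.

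Gene names came from the platform annotation, with 827 symbols updated through RefSeq (GRCm38.p6). A row annotated to several genes was not used, and the row with the highest mean stood for a gene. Genes whose highest group mean reached 5.27 log2, the median of the row means, were tested: 18337 of 30142. A single model of the 4 groups was fitted in limma 3.58.1 (R 4.3.3; lmFit and eBayes, no covariate, 7 residual degrees of freedom). Tests are two-sided and p-values adjusted by Benjamini-Hochberg over all genes tested, with calls at 5%. Errors of differences are standard errors from this fit, and fold changes are 2 to the power of the log2 difference. The fit was tested on simulated data. The labels call replicates biological without saying that each is a separate mouse, so p-values measure the spread between these samples. No labels give a batch.

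The genes and lists were chosen with earlier results of these data known. Named genes are the members called in any comparison, the 4 members with the smallest p of each comparison, a fixed set (Mki67, Top2a, Cdk1, Mcm6, Pcna, Rrm2, Ect2 and Mybl1; Ccnb1 and Ccnd1 had no row), Cdkn1a, and called genes of the other lists. Genes named outside this rule as the extreme of a count were chosen after their values were seen. Alternatives were median centring, quantile normalization, other filters, array weights, a trended robust fit, fits of 2 groups, the mean of all rows of a gene, the replicate number as a block, and leaving out each array.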

Additional observations from a re-analysis of the deposited data

How the results depend on the processing

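The counts of genes called changed with the processing. Nemo KO minus wildtype gave 1 call with each array centred on its median, and double KO minus Nemo KO gave 1 with array weights. For double KO minus Cxcr6 KO there was 1 with no filter on low values, 28 with array weights and 5 with only the 2 groups in the fit. The share of all tested genes called in that comparison moved too. It was 7.41% in the main fit, 25.6% with array weights and 0.629% without Cxcr6 KO array 3. No share is given for the other fits counted here, so their counts say nothing particular to these genes. When single arrays were left out, the number called ran between 0 and 2 for Nemo KO minus wildtype, 0 and 13 for double KO minus Cxcr6 KO, 0 and 1 for Cxcr6 KO minus wildtype, and 0 and 1 for the interaction. Without double KO array 1 it was 7 for double KO minus Cxcr6 KO. The fit of 2 groups gives no interaction. A lone wildtype array in a fit is assumed to vary like the other groups.

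The median differences over the 45 genes ran between 0.58 and 1.35 for double KO minus Cxcr6 KO and between 0.20 and 0.91 for double KO minus Nemo KO. They ran between -0.76 and 0.53 for Nemo KO minus wildtype, turning positive without wildtype array 2 (0.53) or Nemo KO array 2 (0.02), and between -1.11 and 0.15 for Cxcr6 KO minus wildtype, turning positive without wildtype array 2. Of 931 values of named genes under these alternatives, 880 kept their direction and side of the threshold, 21 gained it, 10 lost it and 20 reversed, all 20 in comparisons with wildtype. For Nemo KO minus wildtype, leaving out each array gave between -1.54 and 1.20 for Ect2, -2.20 and 3.63 for Mki67, -1.46 and 1.24 for Top2a, -0.55 and 0.69 for Cdk1, -1.76 and 0.74 for Mcm6, -1.47 and 0.45 for Rrm2, and -2.55 and 0.11 for E2f8. Ect2 was 0.02 without Nemo KO array 2, and Cdk1 -0.03 without Nemo KO array 3, -0.0093 with centring and -0.0036 with array weights. For Cxcr6 KO minus wildtype the ranges were -1.42 to 0.16 for Mybl1, -5.49 to 0.34 for Mki67, -2.56 to 0.13 for Top2a, -2.17 to 0.33 for Mcm6, -0.21 to 0.26 for Pcna and -1.46 to 0.45 for Rrm2, and Cdk1 was 0.14 without wildtype array 2. Pcna was -0.05 without Cxcr6 KO array 2. Both ends of each of these gene ranges came from leaving out a wildtype array, and both ends of the 2 double KO medians from leaving out a double KO array. The cause was not tested.

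Centring moved the median of all tested genes to 0.16 for double KO minus Nemo KO, against 0.04 as reported, and to 0.17 for the interaction, against 0.03. For Nemo KO minus wildtype it moved to -0.12, against -0.04. The calls of all tested genes then split 89 higher and 1230 lower for Nemo KO minus wildtype, against 9 and 20 as reported, 174 and 27 for double KO minus Nemo KO, against 67 and 42, and 657 and 462 for double KO minus Cxcr6 KO, against 631 and 727.

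The groups share replicate numbers, but arrays with the same number did not deviate together, with correlations of their deviations between -0.27 and 0.28, so the numbers were not taken as pairs. With the replicate number as a block, 2 genes were called for double KO minus Cxcr6 KO and 0 in the other comparisons. The block gave medians of 1.03, 0.58, -0.17 and -0.62 for double KO minus Cxcr6 KO, double KO minus Nemo KO, Nemo KO minus wildtype and Cxcr6 KO minus wildtype, and -0.061 for Cdk1 in Nemo KO minus wildtype. With 2 or 3 arrays a group, genes whose signal differs widely between arrays of 1 group can miss the threshold at large differences.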

Other observations

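Of genes outside the 49, Wee1, Myc and Hmmr are given here, chosen after their values were seen. Wee1, the kinase that holds Cdk1 inactive, had 7.68, 8.17 and 8.49 in the double KO, 7.80, 8.23 and 7.34 in the Nemo KO, 8.43, 9.94 and 9.75 in the Cxcr6 KO, and 7.24 and 7.70 in wildtype. Cxcr6 KO arrays 2 and 3 were above all other arrays. Myc, a driver of cell growth, had 9.55, 9.20 and 9.55 in the double KO, 9.04, 9.54 and 8.93 in the Nemo KO, 8.78, 8.94 and 8.38 in the Cxcr6 KO, and 10.50 and 8.17 in wildtype. Wildtype array 1 was highest and array 2 lowest of all 11, the order of E2f8 within wildtype and the opposite of the mitotic genes. Hmmr, a spindle protein of the other mitotic list, had 6.84, 7.86 and 9.55 in the double KO, 7.08, 6.69 and 7.27 in the Nemo KO, 5.41, 5.67 and 5.43 in the Cxcr6 KO, and 5.2 and 8.64 in wildtype. Its arrays kept the order of Mki67 at the top, double KO array 3 followed by wildtype array 2.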
